A study of Mus musculus with 12 samples.

Results

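The transcriptome of untreated intestinal stem cells (ISCs) was described from the 3 control (Ctrl) libraries of a series of 12 libraries in 4 groups. Genes were ranked by their mean FPKM (sequenced fragments divided by transcript length and by the mapped total of the library, a level that can be compared between genes) over Ctrl 1, Ctrl 2 and Ctrl 3, and no treated library was used. The cells came from the small intestine of untreated *Lgr5-EGFP-IRES-CreERT2* mice, young adults of matched age, in which a green fluorescent protein (EGFP) and a tamoxifen-inducible Cre recombinase are made from the *Lgr5* locus. According to the methods, villi were scraped off, crypts were released with EDTA, and living cells without CD31, CD45, TER119 and CD24 but with EpCAM and bright EGFP (Lgr5-EGFPhi) were sorted. The methods also keep control mice from food and water for as long as the others are restrained. The cassette disrupts the *Lgr5* allele that carries it and is silent in part of the crypts of this line, and the labels give neither the sex of the mice, nor whether the cassette was on 1 allele, nor whether a library is 1 mouse or a pool. The spread between the 3 libraries is therefore the spread between samples, whose part due to mice and to handling was not separated.

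ISCs sit at the base of the crypts and divide throughout life to renew the epithelium. Wnt and R-spondin signals keep them as stem cells, Notch signals hold them back from secretory fates, epidermal growth factors drive their division, and bone morphogenetic proteins push their daughters toward differentiation. Most of these signals are made by Paneth cells next to them and by the mesenchyme below, whereas the receptors are on the ISCs themselves.

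The sorted cells carried the transcripts that define ISCs, and the median of the 4 ISC markers was above that of each list of markers of other cell types. *Olfm4*, which encodes the secreted glycoprotein olfactomedin 4, was at 4574, 4039 and 4436 FPKM in Ctrl 1, 2 and 3 and was the gene with the third highest level of all. *Smoc2*, a secreted calcium-binding protein of the matrix, was at 184, 162 and 168 FPKM. *Ascl2*, a basic helix-loop-helix factor that sets the stem cell program, was at 83.5, 78.2 and 84.8 FPKM. The 3 libraries were thus close to one another for each of these genes. *Lgr5*, the R-spondin receptor whose locus drove the sorting, was at 43.4, 39.8 and 48.2 FPKM, and its value cannot be told apart into the intact and the cassette-bearing allele. The values of the 4 genes did not overlap with one another in the order *Olfm4*, *Smoc2*, *Ascl2*, *Lgr5*, and within a library *Olfm4* was 92.1 to 106 times *Lgr5*. The order of *Smoc2* and *Ascl2* depended on the measure of length, since deposited counts per annotated exon length gave 109.6 for *Smoc2* and 126 for *Ascl2* on the same scale. The median of the 4 markers was 127 ± 6.695 FPKM (SD, n = 3). A longer signature of 35 ISC genes had all 35 at or above 1 FPKM, 32 at or above 10 and 11 at or above 100, against 24.9% of all genes and 49.4% of protein-coding genes at or above 1 FPKM. After *Olfm4* its highest members were *Clca3b* (853 ± 44.7 FPKM, SD, n = 3, as for every mean ± SD that follows), the sodium, potassium and chloride cotransporter *Slc12a2* (284 ± 35.9 FPKM) and the Myc target *Cdca7* (249.9 ± 17.1 FPKM). Its lowest were *Mex3a* (4.61 ± 0.784 FPKM), which marks slowly cycling ISCs, and *Pcdh8* (5.27 ± 1.25 FPKM), a protocadherin. The Wnt feedback gene *Axin2* was at 148 ± 7.098 FPKM and the vitamin D receptor *Vdr* at 204 ± 3.77 FPKM.

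The promoters of 2 of these markers and of the gut factor *Cdx2* are given as the 200 bases before the annotated start, 5′ to 3′ on the gene's own strand (RefSeq, GRCm38.p6), because these genes carry the identity of the cells. *Olfm4* is at chr14:80000102-80000301 (+ strand), *Ascl2* at chr7:142969265-142969464 (− strand) and *Cdx2* at chr5:147307250-147307449 (− strand), with *Olfm4* and *Ascl2* at the start of the gene model of the files and *Cdx2* within 21 bases of it. Capitals mark any match, on either strand, to 6 short motifs whose letters are given below with their shares, namely a TATA box, a GC box, a CCAAT box, the core of the motif of TCF factors (the DNA-binding partners of β-catenin) and the E-boxes of the ASCL2 type and of the MYC and CLOCK type. No match overlapped another in these windows.
Olfm4: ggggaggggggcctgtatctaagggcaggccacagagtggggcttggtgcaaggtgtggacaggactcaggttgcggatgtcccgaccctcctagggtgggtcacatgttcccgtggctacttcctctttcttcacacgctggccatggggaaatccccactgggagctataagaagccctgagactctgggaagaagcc
Ascl2: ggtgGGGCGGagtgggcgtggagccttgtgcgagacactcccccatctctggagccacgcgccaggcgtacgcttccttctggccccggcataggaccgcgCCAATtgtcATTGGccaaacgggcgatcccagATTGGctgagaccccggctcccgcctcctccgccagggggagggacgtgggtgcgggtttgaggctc
Cdx2: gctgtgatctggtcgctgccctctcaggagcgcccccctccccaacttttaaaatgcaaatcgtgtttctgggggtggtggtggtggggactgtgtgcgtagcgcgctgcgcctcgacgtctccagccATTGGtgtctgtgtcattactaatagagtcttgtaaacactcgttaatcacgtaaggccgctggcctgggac
*Ascl2* held 1 GC box and 3 CCAAT boxes, *Cdx2* held 1 CCAAT box, and the window of *Olfm4* held none of the 6 motifs. Over windows of 300 bases (250 before the start and 50 after it), the share of promoters with a GC box (GGGCGG) was 62.1% of 596 promoters of genes at 100 FPKM or more, 66.2% of 5530 at 10 to under 100 FPKM, 60.3% of 4449 at 1 to under 10 FPKM, 46% of 2969 above 0 and under 1 FPKM, and 21.4% of 5924 at 0 in every library, against 48% of all 19468 promoters matched to 15928 protein-coding genes. A TATA box (TATAAA) was in 10.9%, 6.4%, 7.06%, 10% and 22% of the same 5 classes, from the highest level to 0, against 12% of all. The CCAAT box, searched by the letters of its name, was at similar shares, with 38.9%, 38.4%, 38%, 36.3% and 37.4% of the same 5 classes, against 37.7% of all. The core of the TCF motif (CTTTGA) was in 9.4%, 12%, 12.5%, 12.3% and 19.1%, against 14.3% of all. The ASCL2-type E-box (CAGCTG) was in 11.6%, 13.4%, 16.4%, 19.1% and 16.3%, against 15.8% of all. The MYC and CLOCK type (CACGTG) was in 11.4%, 10.9%, 9.62%, 6.6% and 4.56%, against 8.03% of all. The median GC content was 60.8% at 100 FPKM or more and 48.7% at 0, and the part of base composition in the motif shares was not tested.

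Markers of differentiated epithelial cells were measurable, and several were as high as ISC markers. The mean of *Tff3* was above those of *Smoc2*, *Ascl2* and *Lgr5*. The means of *Fabp2* and *Defa24* were above those of *Ascl2* and *Lgr5*. Those of *Agr2* (75.31 FPKM), a goblet cell marker, and *Defa17* (47.53 FPKM), a Paneth cell marker, were above that of *Lgr5*. All 6 Paneth cell markers were at or above 1 FPKM, with a median of 24.8 ± 2.41 FPKM, led by the defensin *Defa24* (112, 79.8 and 99.7 FPKM in Ctrl 1, 2 and 3), while lysozyme, *Lyz1*, was at 30.5, 24.1 and 33.6 FPKM. All 6 goblet cell markers were also at or above 1 FPKM (median 24.6 ± 2.94), from the trefoil peptide *Tff3* at 203 ± 31.2 FPKM to the mucin *Muc2* at 12.5 ± 1.44 FPKM and the secretory factor *Spdef* at 5.08 ± 0.933 FPKM. Enterocyte markers had a median of 12.9 ± 2.18 FPKM, with the fatty acid binding protein *Fabp2* at 97.9 ± 15.96 FPKM but intestinal alkaline phosphatase, *Alpi*, at 2.43 ± 1.03 FPKM and sucrase-isomaltase, *Sis*, at 5.01 ± 1.64 FPKM. Enteroendocrine markers had a median of 3.07 ± 1.26 FPKM, and tuft cell markers one of 0.338 ± 0.0378 FPKM, with 2 of 6 at or above 1 FPKM. In bulk RNA, a few cells with much of a transcript and many cells with little of it cannot be told apart. The median of each of these lists was below that of the ISC markers in every library.

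Markers of cells from outside the epithelium had means under 1 FPKM. None of 6 blood cell markers reached a mean of 1 FPKM, and *Ptprc* (CD45), *Cd3e* and the hemoglobin gene *Hbb-bs* were listed at 0 in all 3 libraries. None of 6 stromal and endothelial markers reached 1 FPKM, with both collagen genes, *Pdgfra* and *Cdh5* at 0. None of 6 neural and glial markers did either, with a median of 0.0345 ± 0.0199 FPKM. The genes of the gate followed the sort for EpCAM (*Epcam*, 654, 675 and 621 FPKM) and CD45 (*Ptprc*, 0), and the gene of CD31, *Pecam1*, had a mean of 0.135 FPKM, whereas *Cd24a* was at 232, 226 and 201 FPKM although the cells were sorted as CD24-. Only its transcript was measured here. A count of 0 allows up to 3 read pairs, or 12 counts, in a library, which was 0.708 to 0.743 CPM (counts scaled to library size), and such limits cover counting error only.

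Genes that tell position and sex were also read. *Gata4* (53.7 ± 0.717 FPKM), a factor of the duodenum and jejunum, was present together with *Gata6* (41.3 ± 3.07 FPKM), *Gata5* (32.9 ± 2.67 FPKM) and, at lower level, the duodenal factor *Pdx1* (6.97 ± 1.12 FPKM). The ileal bile acid genes *Fabp6* and *Slc10a2* were at 5.41 ± 0.569 FPKM and under 1 FPKM. All 3 libraries had transcripts from the Y chromosome, with *Eif2s3y* at 26.5, 33.4 and 34.6 FPKM and *Ddx3y* at 7.398, 9.68 and 10.8 FPKM, and a mean of 0.1998 FPKM for *Xist*, the RNA that silences an X chromosome in females.

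Over all genes, 11868 of 47729 reached a mean of 1 FPKM, 6353 reached 10, 668 reached 100 and 88 reached 1000, while 28659 were at 0 in all 3 libraries. Among protein-coding genes, 10687 of 21620 reached 1 FPKM. The libraries gave 11825, 11786 and 11985 genes at or above 1 FPKM one by one, and 11240 genes were so in every library. Total counts were 16152289 to 16943362 per library. The median coefficient of variation over the genes at or above 1 FPKM was 10.3%, and it was 15.8% for genes between 1 and 10 FPKM and 5.53% for those above 100.

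A small set of genes made up much of the RNA. The 10 highest genes held 7.35 ± 0.0848% of all FPKM, the 100 highest 34.6 ± 0.211% and the 1000 highest 66.2 ± 0.457%. Ribosomal protein genes held 24.2 ± 0.455% and accounted for 19 of the 30 highest genes, led by *Rplp1* (3936 ± 133 FPKM) and *Rps26* (3113 ± 134 FPKM). *Eef1a1*, the factor that brings aminoacyl-tRNA to the ribosome, was first at 7159 ± 211 FPKM, and the chromatin-associated peptide *Ptma* (2034 ± 141 FPKM) and the growth-related *Tpt1* (1907 ± 101 FPKM) were the other protein-coding genes outside the ribosome, the mitochondrial genome and *Olfm4* among the 30. Genes of the mitochondrial genome held 4.74 ± 0.676% of all FPKM and 4 of the 30 places, led by the cytochrome oxidase subunit *mt-Co1* (4592, 3866 and 5475 FPKM). The remaining 3 places belonged to *Gm10925*, *Gm28661* and *Gm29216*, unprocessed pseudogenes on chromosome 1 that copy mitochondrial sequence, and 7 such copies together held 2.06 ± 0.28% of all FPKM. Their reads are shared with the mitochondrial genes, so their own expression is uncertain.

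**Figure D1:**
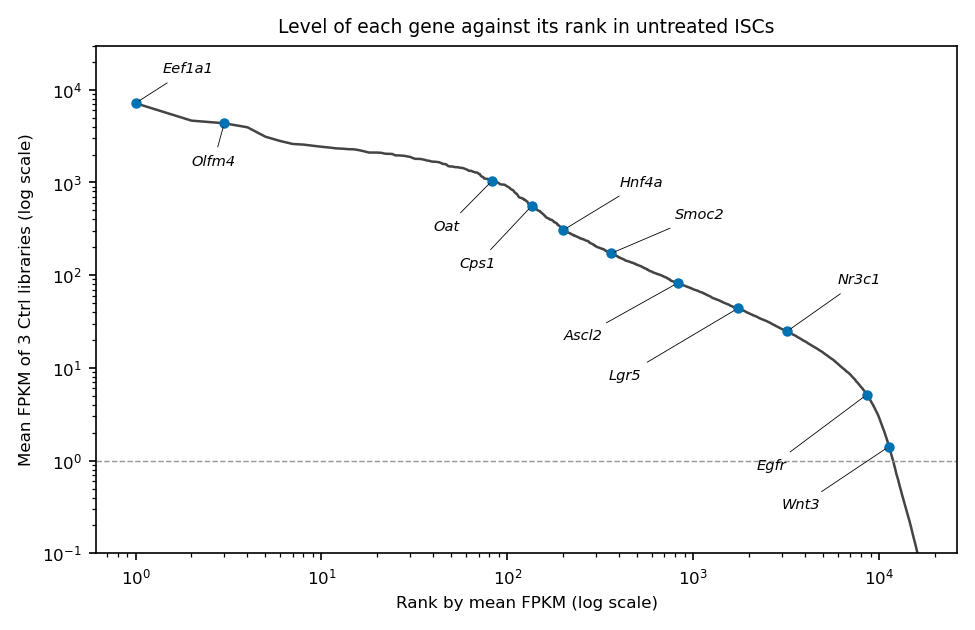
Mean FPKM of the 3 Ctrl libraries (log axis) against the rank of the gene (log axis), drawn for genes at 0.1 FPKM or more, with the dashed line at 1 FPKM and points at named genes. *Olfm4* stands among the highest genes at 4350 FPKM, whereas *Ascl2* and *Lgr5* stand near 82.2 and 43.8 FPKM.

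Outside ribosomal and mitochondrial genes, the next protein-coding genes combined translation, folding and epithelial products. These genes were chosen after their values were seen. The elongation factor *Eef2* was at 1753 ± 44.4 FPKM, and the chaperones *Hsp90ab1* and *Hspa8* were at 1369 ± 11.01 and 1054 ± 11.1 FPKM. The galectin *Lgals2* was at 1586 ± 119.6 FPKM and *Lgals4* at 917 ± 35.9 FPKM. Enzymes among them included *Oat*, ornithine aminotransferase (1048 ± 58.5 FPKM), the ATP synthase subunit *Atp5b* (1051 ± 38.3 FPKM) and the mitochondrial aldehyde dehydrogenase *Aldh1b1* (778 ± 4.25 FPKM). *Pigr*, the receptor that carries antibodies across the epithelium, was at 928 ± 29.9 FPKM, and the keratin *Krt8* at 790.1 ± 42.5 FPKM.

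The 978 listed genes fell unequally into expressed and silent by their class. Of 337 listed receptors, ligands and direct pathway genes, 166 (49.3%) were at or above 1 FPKM and 5 at or above 100. Of 213 transcription factors, 122 (57.3%) were at or above 1 FPKM and 9 at or above 100. Of 222 metabolic genes, 195 (87.8%) were at or above 1 FPKM and 41 at or above 100. The share for receptors was close to the 49.4% of all protein-coding genes, and 98 receptor genes, 49 factors and 7 metabolic genes were at 0 in every library. The same 49.4% is the background for each later count of list members at or above 1 FPKM.

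The receptors for Wnt and R-spondin were present, and nearly all of the ligands were not. Of 21 Wnt receptors and their ubiquitin ligases, 15 were at or above 1 FPKM. *Rnf43*, which removes Frizzled receptors from the membrane, was the highest at 65.01, 61.03 and 68.5 FPKM in Ctrl 1, 2 and 3, and its relative *Znrf3* was at 5.65, 5.25 and 6.56 FPKM, so that *Rnf43* was 10.5 to 11.6 times *Znrf3* within a library. *Lgr4*, the other R-spondin receptor, was at 42.1, 36.8 and 44.7 FPKM, and its values overlapped those of *Lgr5*, while *Lgr6* was listed at 0. By deposited counts per exon length, *Lgr4* was at 54.9 and *Lgr5* at 31 on the same scale. The Frizzled genes *Fzd5* (19.7 ± 1.22 FPKM) and *Fzd7* (18.2 ± 2.27 FPKM) overlapped with each other and stood above *Fzd2* (5.93 ± 0.709 FPKM), and the coreceptors *Lrp5* and *Lrp6* were at 27.1 ± 1.18 and 14.01 ± 1.504 FPKM. Of 23 Wnt and R-spondin ligands, 2 reached a mean of 1 FPKM. These were *Wnt3*, the Paneth cell Wnt (1.23, 1.53 and 1.5 FPKM), and *Wnt5b* (0.9099, 2.07 and 0.387 FPKM), and all 4 R-spondin genes were at 0. Among nuclear effectors, β-catenin, *Ctnnb1*, was at 246 ± 4.57 FPKM, and the DNA-binding partners were *Tcf7* (15.1 ± 0.861 FPKM) and *Tcf7l2* (8.35 ± 0.516 FPKM), with *Lef1* under 1 FPKM and *Tcf7l1* at 0.

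Notch genes were expressed as receptor and ligand together. *Notch1* was at 14.2, 12.7 and 17.3 FPKM and 3.51 to 3.82 times *Notch2* (4.07 ± 0.471 FPKM), or 2.4 times by counts per exon length, while *Notch3* was under 1 FPKM. *Dll1*, a ligand made by secretory precursors, was at 15.5, 17.97 and 15.7 FPKM and *Dll4* at 2.68, 4.53 and 4.79 FPKM, and their values did not overlap. The Notch target and repressor of secretory fate *Hes1* was at 87.1, 89.2 and 119 FPKM, highest in Ctrl 3, whereas *Hes5* was under 1 FPKM and *Hey1* and *Hey2* were at 0. *Atoh1*, the factor that *Hes1* represses, was at 3.84 ± 0.4103 FPKM, and the endocrine factor *Neurog3* at 8.798, 11.97 and 5.57 FPKM. Part of the exon sequence of *Dll1*, *Dll4* and *Neurog3* lies opposite another gene, and strand was not stated to be used.

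Of the ErbB family, the partners *Erbb3* and *Erbb2* stood above the receptor for epidermal growth factor itself. *Erbb3*, which signals only with a partner, was at 45.96, 45.5 and 40.6 FPKM, *Erbb2*, which binds no ligand of its own, at 33.3, 31.6 and 32.4 FPKM and *Egfr* at 4.72, 5.06 and 5.66 FPKM. No values overlapped between the 3 genes, and *Erbb3* was 7.18 to 9.74 times *Egfr* within a library. *Erbb4* was listed at 0. *Lrig1*, a brake on ErbB receptors, was above them all at 65.5 ± 5.34 FPKM. The ligands were low, with 4 of 11 at or above 1 FPKM, namely *Nrg4* (5.95 ± 1.61 FPKM), *Tgfa* (4.48 ± 0.958 FPKM), *Btc* (3.7 ± 0.63 FPKM) and *Hbegf* (3.06 ± 0.161 FPKM), and *Egf*, *Areg* and *Ereg* each under 1 FPKM.

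Of 30 other growth factor receptors, 13 (43.3%) were at or above 1 FPKM, near the 49.4% of protein-coding genes, and 11 were at 0. The collagen receptor *Ddr1* was the highest at 30.8 ± 2.02 FPKM. Of the fibroblast growth factor receptors, *Fgfr3* (14.7 ± 3.53 FPKM), *Fgfr4* (14.3 ± 1.86 FPKM) and *Fgfr2* (14.03 ± 2.12 FPKM) had overlapping values, which were 12.2, 20.1 and 7.71 by counts per exon length, and *Fgfr1* was under 1 FPKM. The insulin receptor *Insr* was at 7.52 ± 1.43 FPKM, the insulin-like growth factor receptor *Igf1r* at 4.24 ± 0.108 FPKM and the hepatocyte growth factor receptor *Met* at 9.597 ± 1.49 FPKM. Receptors of endothelium and blood (*Kdr*, *Flt1*, *Tek*, *Csf1r*) were at 0.

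Eph receptors, which with their ephrin ligands sort cells along the crypt, were led by *Ephb4* (78.7, 74.8 and 74.4 FPKM), *Ephb3* (30.2, 30.01 and 30.5 FPKM) and *Ephb2* (21.9, 27.1 and 26.9 FPKM), whose values did not overlap. Of 14 Eph genes 6 (42.9%) were at or above 1 FPKM, near the 49.4% of protein-coding genes. Among 8 ephrins the A class led, with *Efna4* at 42.1 ± 1.08 FPKM and *Efna1* at 36.5 ± 2.33 FPKM, while *Efnb1*, a ligand of the B receptors, was at 23.7 ± 1.49 FPKM and *Efnb2* at 1.91 ± 0.8597 FPKM.

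Receptors for bone morphogenetic proteins and TGF-β included *Bmpr1a* (17.97 ± 0.5696 FPKM), *Acvr1b* (24.4 ± 3.72 FPKM), *Tgfbr1* (8.91 ± 0.142 FPKM), *Tgfbr2* (8.51 ± 0.3403 FPKM) and *Bmpr2* (2.71 ± 0.406 FPKM), with *Bmpr1b* at 0. The coreceptor *Rgmb*, an ISC signature gene, was above them at 108 ± 11.7 FPKM. In the Hedgehog pathway, 3 of 10 genes were at or above 1 FPKM. The signal transducer *Smo* was at 19.3, 19.8 and 24.3 FPKM, the receptor *Ptch1* at 7.23, 7.01 and 8.54 FPKM and the ligand *Ihh* at 7.88, 5.78 and 9.91 FPKM. All 3 transcription factors of the pathway, *Gli1*, *Gli2* and *Gli3*, were listed at 0, as was *Hhip*.

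**Figure D2:**
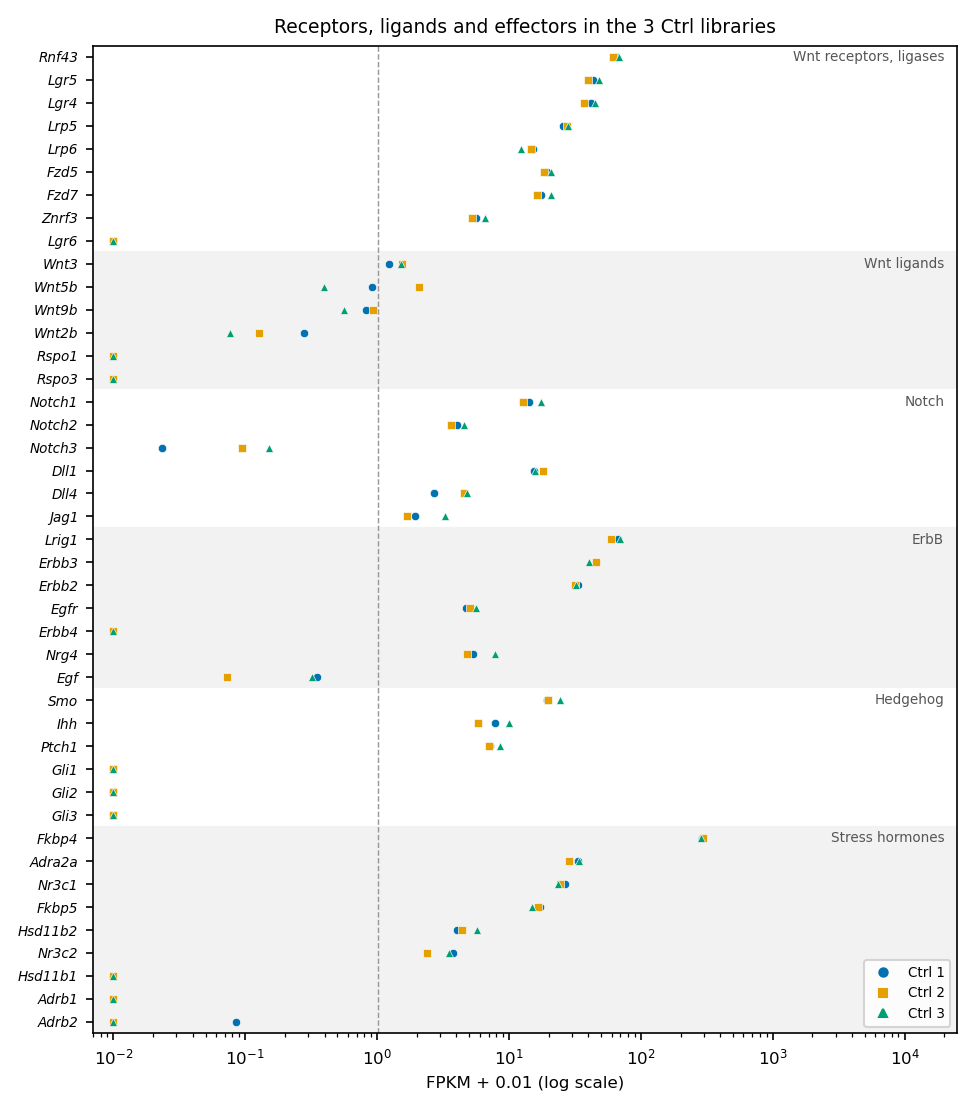
Levels (FPKM + 0.01 on a log axis, genes at 0 drawn at 0.01) of selected receptors, ligands and effectors in the 3 Ctrl libraries, 1 point per library, with the dashed line at 1 FPKM. *Rnf43*, *Lgr4* and *Lgr5* lie above 30 FPKM and *Rspo1* and *Rspo3* at 0, *Gli1*, *Gli2* and *Gli3* lie at 0, and *Nr3c1* lies above *Nr3c2*.

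Of 44 cytokine and tumor necrosis factor family receptors, 25 (56.8%) were at or above 1 FPKM, against 49.4% of protein-coding genes. The interferon-γ receptor genes *Ifngr1* and *Ifngr2* were at 52.1, 51.6 and 50.7 FPKM and 35.4, 33.5 and 30.9 FPKM. The lymphotoxin receptor *Ltbr* was at 49.4 ± 1.26 FPKM, the tumor necrosis factor receptor *Tnfrsf1a* at 32.6 ± 1.63 FPKM and the interleukin-17 receptor subunit *Il17rc* at 23.3 ± 0.915 FPKM. The interleukin-22 receptor *Il22ra1*, which drives ISC regeneration, was at 3.82 ± 0.532 FPKM, and its partner *Il10rb* at 18.2 ± 0.333 FPKM. Receptors for type I interferon were at 10.4 ± 1.24 FPKM (*Ifnar1*) and 6.27 ± 1.03 FPKM (*Ifnar2*). Of 26 innate sensors, 15 (57.7%) were at or above 1 FPKM, near the 49.4% of protein-coding genes. *Nlrp6*, an inflammasome sensor of the gut epithelium, was at 130.4, 127 and 128 FPKM. Next were the flagellin and rod protein sensors *Naip6* (10.9 ± 3.53 FPKM) and *Naip2* (9.298 ± 1.12 FPKM) with their partner *Nlrc4* (9.91 ± 2.07 FPKM). The Naip genes are near-identical copies, so the split between them is uncertain. *Tlr2* was at 2.29 ± 0.1695 FPKM, whereas *Tlr4* and *Tlr5*, receptors for lipopolysaccharide and flagellin, were under 1 FPKM and *Tlr9* and *Nlrp3* were at 0.

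Of 49 nuclear receptors, 33 (67.3%) were at or above 1 FPKM, against 49.4% of protein-coding genes. Among them, 19 were at or above 10 FPKM and 2 above 100. *Hnf4a*, the regulator of epithelial differentiation and lipid metabolism, was at 301, 304 and 315 FPKM and 17.01 to 20.8 times its relative *Hnf4g* (16.9 ± 1.99 FPKM). *Vdr* followed. Next were *Esrra*, a regulator of mitochondrial genes (69.8 ± 4.5 FPKM), the thyroid hormone receptor *Thra* (64.6 ± 1.72 FPKM), the liver X receptor *Nr1h2* (59.1 ± 2.596 FPKM) and the fatty acid sensor *Ppard* (44.2, 49.6 and 54.9 FPKM). *Ppara* was at 4.84 ± 1.11 FPKM and *Pparg* at 3.22 ± 0.267 FPKM. *Nr2f6* was listed at 65.97 ± 6.28 FPKM, but 54.4% of its exon sequence lies opposite *Ocel1*. Both estrogen receptor genes and those for androgen and progesterone were under 1 FPKM.

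Of 21 listed stress hormone receptors, corticosteroid enzymes and cochaperones, 6 (28.6%) were at or above 1 FPKM, against 49.4% of protein-coding genes. These included the receptor genes *Nr3c1*, *Nr3c2* and *Adra2a*. *Nr3c1*, the glucocorticoid receptor, was at 26.5, 24.2 and 23.6 FPKM in Ctrl 1, 2 and 3, and *Nr3c2*, the mineralocorticoid receptor that also binds corticosterone, at 3.77, 2.37 and 3.49 FPKM, so that *Nr3c1* was 6.76 to 10.2 times *Nr3c2* within a library. *Hsd11b2*, which inactivates corticosterone, was at 4.01, 4.38 and 5.67 FPKM, and *Hsd11b1*, which regenerates it, was listed at 0. The cochaperone *Fkbp5*, a glucocorticoid target that holds the receptor in the cytoplasm, was at 17.2, 16.5 and 15.03 FPKM, and *Fkbp4*, which competes with it on the receptor complex, at 291, 296 and 288 FPKM. Of the 9 adrenergic receptor genes, *Adra2a* alone was at or above 1 FPKM, at 33.4, 28.8 and 33.8 FPKM. *Crhr1*, *Crhr2* and *Mc2r*, the receptors for corticotropin-releasing and adrenocorticotropic hormone, were at 0. Of the corticosteroid synthesis genes, *Cyp11b1* was at 0 and *Cyp11a1* under 1 FPKM.

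Of 48 receptors for prostaglandins, acetylcholine, peptides, nucleotides and lipids, 18 were at or above 1 FPKM. *Vipr1*, the receptor for vasoactive intestinal peptide, was the highest at 59.6, 55.7 and 63.04 FPKM. The adhesion receptor *Adgrg1* (18.3 ± 1.09 FPKM), the lysophosphatidic acid receptor *Lpar5* (16.7 ± 3.31 FPKM) and the protease-activated receptor *F2rl1* (13.1 ± 0.307 FPKM) followed. Among prostaglandin E2 receptors, *Ptger4* was at 6.44 ± 0.205 FPKM and *Ptger1* at 9.296 ± 1.41 FPKM, with *Ptger2* and *Ptger3* at 0, though 71% of the exon sequence of *Ptger1* lies opposite another gene. The muscarinic receptor *Chrm3* was at 3.62 ± 1.49 FPKM and the serotonin receptor *Htr4* at 2.98 ± 0.284 FPKM. *Glp1r* and *Glp2r*, receptors of the gut hormones that stimulate insulin release and mucosal growth, were at 0.

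Transcription factors of gut identity were widely expressed. Of 30 gut identity factors, 23 were at or above 1 FPKM and 5 at or above 100. After *Hnf4a* came *Elf3* (271, 277 and 269 FPKM), an epithelial ETS factor, and the intestinal homeobox genes *Cdx1* (173, 179 and 170.2 FPKM) and *Cdx2* (156, 178 and 148 FPKM), which overlapped. *Ehf* was at 105 ± 3.11 FPKM, *Isx* at 36.6 ± 4.16 FPKM and the pioneer factors *Foxa3*, *Foxa1* and *Foxa2* at 22.7 ± 0.854, 13.01 ± 0.9504 and 10.1 ± 1.02 FPKM. *Gata1*, *Gata2* and *Gata3*, of blood and other tissues, were at 0. Of 17 Kruppel-like factors, *Klf5*, which supports crypt proliferation, was at 115, 125 and 128 FPKM and *Klf4*, which favors differentiation, at 4.99, 6.53 and 6.91 FPKM, a ratio of 18.5 to 23.01 within a library and of 6.66 by counts per exon length. Of 20 Sox genes 5 were at or above 1 FPKM, led by *Sox4* (65.2 ± 5.23 FPKM) and *Sox9* (45.7 ± 1.85 FPKM), which did not overlap. The Hox genes were low, with 7 of 39 at or above 1 FPKM, and the highest was *Hoxb6* at 1.39, 3.68 and 3.304 FPKM. Of those 7, 6 were of the B cluster and 1, *Hoxa7*, of the A cluster. All listed HoxC genes were at 0, as were all HoxD genes except *Hoxd4*, which was under 1 FPKM.

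Genes of growth and of the cell cycle were expressed throughout. Besides *Ascl2* and *Hes1*, the inhibitors of differentiation *Id1* (59.5, 88.04 and 83.7 FPKM), *Id3* (42.3 ± 5.05 FPKM) and *Id2* (21.1 ± 2.45 FPKM) and the E protein *Tcf3* (74.5 ± 1.63 FPKM) were at or above 10 FPKM. All 20 Myc and E2F network genes were at or above 1 FPKM, with *Myc* at 113, 133 and 110.4 FPKM and *E2f4* at 53.7 ± 2.72 FPKM. All 15 proliferation genes were at or above 10 FPKM, among them the replication clamp *Pcna* (178, 181 and 167 FPKM), the ubiquitin-conjugating enzyme *Ube2c* (145 ± 11.3 FPKM), *Top2a* (72.6 ± 0.7695 FPKM) and *Mki67* (22.6 ± 0.686 FPKM). Of the D cyclins, *Ccnd1* (71.6 ± 2.33 FPKM) and *Ccnd2* (64.7 ± 8.57 FPKM) overlapped, with part of *Ccnd1* opposite *Oraov1*, and the kinase *Cdk4* was at 194 ± 10.4 FPKM against 17.8 ± 1.804 FPKM for *Cdk6*. Of 7 inhibitors, *Cdkn1b* (p27) was at 33.6 ± 0.539 FPKM, *Cdkn1a* (p21) at 3.88 ± 0.729 FPKM and *Cdkn2a* was listed at 0.

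Stress response factors were widely present, with 28 of 33 (84.8%) at or above 1 FPKM, against 49.4% of protein-coding genes. *Trp53* (p53) was at 111, 108 and 109.8 FPKM, the amino acid response factor *Atf4* at 81.8 ± 4.44 FPKM, *Xbp1* of the unfolded protein response at 62.6 ± 1.97 FPKM and the oxidative stress factor *Nfe2l2* at 61.6 ± 3.01 FPKM, whereas *Trp63* was at 0. The FoxO genes *Foxo4*, *Foxo3* and *Foxo1* were at 21.1 ± 1.26, 9.02 ± 0.394 and 5.59 ± 0.236 FPKM. The Hippo effector *Yap1* was at 38.9, 39.1 and 41.5 FPKM and its relative *Wwtr1* at 2.55 ± 0.462 FPKM, while markers of the revival state that follows injury were low, with *Clu* at 2.57 ± 0.446 FPKM and *Ly6a* and *Anxa1* under 1 FPKM. Of the markers once assigned to reserve stem cells, *Hopx* was at 157 ± 9.94 FPKM (27.2% of its exons lie opposite *Hopxos*), *Bmi1* at 9.61 ± 0.5298 FPKM and *Tert* at 2.28 ± 0.332 FPKM.

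For glucose, 1 isozyme stood above the others at several steps. The sodium-coupled glucose transporter *Slc5a1* was at 46.6, 42.2 and 42.6 FPKM, 7.24 to 8.97 times the facilitative carrier *Slc2a1* (6.44, 5.22 and 4.75 FPKM). *Hk2* was at 20.8, 21.03 and 20.97 FPKM, whereas *Hk1* was under 1 FPKM. *Ldha*, which favors lactate formation, was at 328, 361 and 332 FPKM and *Ldhb* at 1.55, 1.603 and 1.36 FPKM, a ratio of 211 to 244 within a library and of 130.3 by counts per exon length. *Pkm* was 6.67 to 7.31 times *Pklr* within a library and 3.88 times by counts per exon length, and the muscle aldolase *Aldoa* was at 177 ± 10.2 FPKM. Of 27 glycolysis genes 21 were at or above 1 FPKM and 10 at or above 100. The lactate carrier *Slc16a1* was at 31.96 ± 1.32 FPKM and *Slc16a3* under 1 FPKM.

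Mitochondrial fuel genes were widely present. Of 35 genes for pyruvate entry and the tricarboxylic acid cycle, 33 were at or above 1 FPKM and 12 at or above 100, with a median ratio of the highest to the lowest library of 1.09. *Mdh2* (232 ± 7.73 FPKM) and the succinate dehydrogenase subunit *Sdha* (213 ± 6.296 FPKM) led. The kinase *Pdk2*, which restrains pyruvate dehydrogenase, was at 35.3, 35 and 35.1 FPKM and *Pdk4*, a kinase of fasting, under 1 FPKM. Of 16 fatty acid oxidation genes 14 were at or above 10 FPKM, with the liver-type *Cpt1a* at 46.02, 52.5 and 47.4 FPKM and *Cpt1b* and *Cpt1c* under 1 FPKM. The ketone-using enzymes *Oxct1* and *Bdh1* were at 44.04 ± 2.69 and 91.4 ± 2.46 FPKM.

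Genes of the route toward glucose were present in part. *Fbp2*, the muscle-type fructose bisphosphatase, was at 98.7, 117 and 95.1 FPKM and 3.11 to 3.62 times *Fbp1* (30.1 ± 2.68 FPKM). The mitochondrial *Pck2* was at 41.2, 42.5 and 41.2 FPKM, the cytosolic *Pck1* under 1 FPKM and *G6pc*, which releases free glucose in liver, at 0, whereas the widely expressed *G6pc3* was at 49.4 ± 6.22 FPKM. In the pentose phosphate pathway 8 of 9 genes were at or above 1 FPKM. The nonoxidative *Taldo1* (372 ± 42.3 FPKM) and *Tkt* (228 ± 9.57 FPKM) stood above the oxidative entry enzyme *G6pdx* (26.03 ± 2.05 FPKM). The branches were not ordered as a whole. The oxidative *Pgls* and *Pgd* had means of 95.89 and 91.75 FPKM, and the nonoxidative *Rpia* and *Rpe* 46.54 and 24.62 FPKM.

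**Figure D3:**
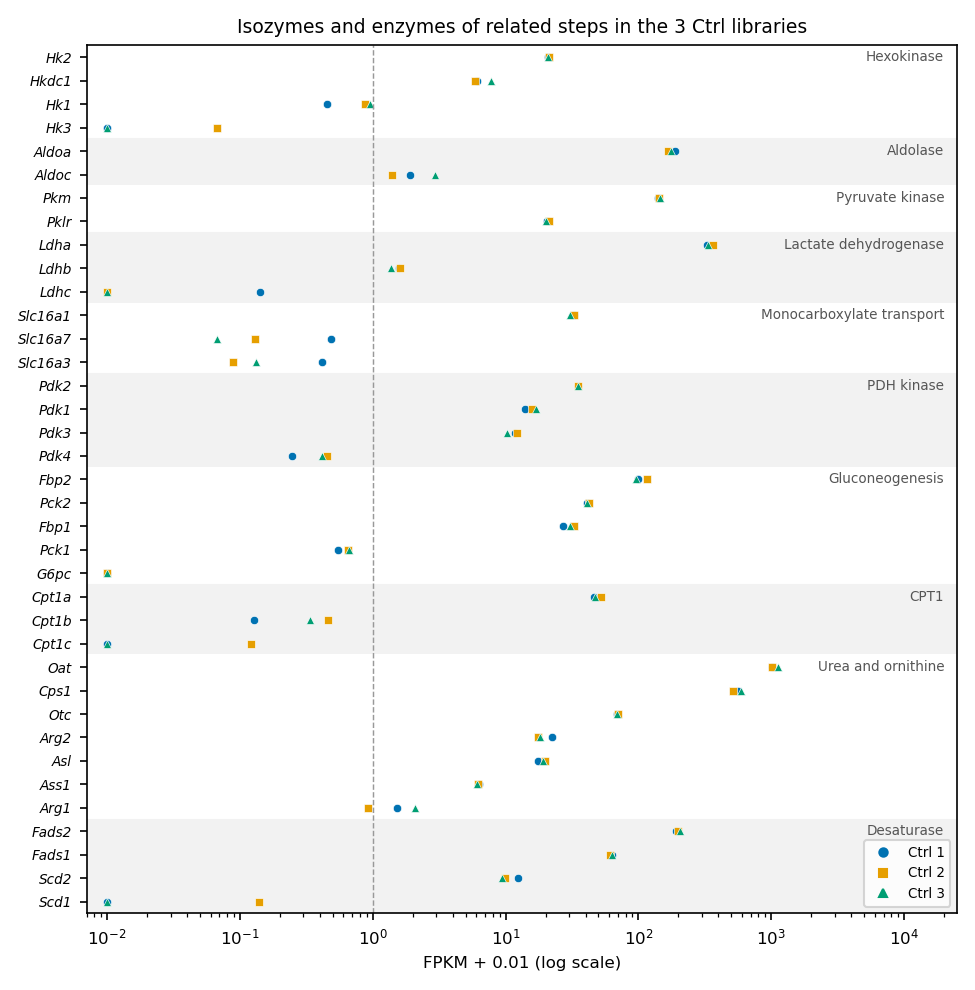
Levels (FPKM + 0.01 on a log axis, genes at 0 drawn at 0.01) of isozymes and of enzymes of related steps in the 3 Ctrl libraries, 1 point per library, with the dashed line at 1 FPKM. *Hk2*, *Ldha*, *Slc16a1*, *Pdk2* and *Cpt1a* stand above their relatives.

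Genes of glutamine and urea handling ranged widely, with 3 of 20 at or above 100 FPKM and a median of 37.7 ± 1.87 FPKM. *Oat*, which joins ornithine to proline and glutamate metabolism, was at 1015, 1013 and 1115 FPKM, and *Cps1*, which fixes ammonia as carbamoyl phosphate, was at 564, 512 and 595 FPKM. *Otc*, which makes citrulline, was at 69.1, 70.7 and 69.2 FPKM. The later urea cycle steps were lower, with *Asl* at 18.7 ± 1.24 FPKM, *Ass1* at 6.19 ± 0.122 FPKM and *Arg1* at 1.49 ± 0.572 FPKM, so that *Cps1* was 83.2 to 97.8 times *Ass1* within a library. The mitochondrial arginase *Arg2* was at 19.3 ± 2.63 FPKM. The glutamine carrier *Slc1a5* was at 72.95, 67.2 and 94.4 FPKM. All 20 genes of this list, all 10 of polyamine synthesis, all 16 of serine, folate and thymidylate synthesis and all 21 of cholesterol synthesis were at or above 1 FPKM. In these, ornithine decarboxylase, *Odc1*, was at 82.6 ± 4.398 FPKM and *Shmt1* at 83.8 ± 3.44 FPKM against 47.2 ± 4.63 FPKM for the mitochondrial *Shmt2*.

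The desaturase genes were led by *Fads2* (192, 197 and 206 FPKM) and *Fads1* (62.4 ± 1.53 FPKM), which act on polyunsaturated chains. *Scd2*, a desaturase of saturated chains, was at 10.6 ± 1.61 FPKM, *Scd1* was under 1 FPKM and *Scd3* at 0, and fatty acid synthase, *Fasn*, was at 16.9 ± 2.86 FPKM. Redox enzymes were high, with 25 of 28 at or above 1 FPKM and 9 at or above 100. *Txn1* was at 479 ± 48.5 FPKM, *Sod1* at 465 ± 37.4 FPKM and the gut-enriched peroxidase *Gpx2* at 438, 495 and 390.1 FPKM, 1.53 to 1.803 times *Gpx1*. Deposited counts per exon length put *Sod1* at 119, *Gpx2* at 229 and *Gpx1* at 298 on the same scale, so the order of these 3 genes depends on the measure of length. *Hmox1*, an oxidative stress target, and *Gpx3* were under 1 FPKM.

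Products for the lumen were also made. Besides *Pigr*, *Lypd8*, which keeps flagellated bacteria from the epithelium, was at 608, 739.8 and 537 FPKM, and the antibacterial lectins *Reg3b* and *Reg3g* were at 193, 156 and 118 and 165, 114 and 104 FPKM, each highest in Ctrl 1. *Dmbt1* was at 151 ± 10.9 FPKM. *Retnlb*, a goblet cell product, was under 1 FPKM. These 14 mucosal product genes included 6 at or above 100 FPKM.

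Most genes varied little between the 3 libraries. Of 8667 genes at a mean of 5 FPKM or more, 133 (1.53%) had a highest library over 2 times the lowest, 77 of them protein-coding among 8271. The count was 87 without Ctrl 1, 63 without Ctrl 2 and 41 without Ctrl 3. By TPM it was 334, with 130 of the 133 among them. The minimum stayed at 5 there although TPM values are higher than FPKM, so genes of lower FPKM entered. Over the 8667 genes, the median ratio was 1.18, and 92.2% were under 1.5. Across the 11868 genes at or above 1 FPKM, Pearson's r of log2(FPKM + 1) between pairs of libraries was 0.982 to 0.986, across genes that are not independent replicates. No ISC signature gene was over 2-fold apart. Of the 35, 25 were lowest in Ctrl 2. How many of all genes were lowest or highest in each library was not counted, here or for the lists that follow. These counts therefore have no background beside them.

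Antigen presentation genes differed between the libraries. All 6 MHC class II genes at a mean of 5 FPKM or more were over 2-fold apart, and the 7 at or above 1 FPKM all were highest in Ctrl 2. The invariant chain *Cd74* was at 533, 653 and 217 FPKM in Ctrl 1, 2 and 3, *H2-Aa* at 82.8, 102 and 26.9 FPKM and *H2-Ab1* at 179.5, 218 and 71.1 FPKM. Ctrl 3 was thus the lowest and lay under both others for each of these. The master regulator *Ciita* was at 5.54, 5.97 and 3.397 FPKM in the same order. Of 14 class I and peptide processing genes, 13 were highest in Ctrl 2. Among these were β2-microglobulin, *B2m* (529.5, 631 and 351 FPKM), and the immunoproteasome subunit *Psmb8* (45.8, 76.1 and 30.2 FPKM). Of the 12 class I genes at a mean of 5 FPKM or more, 1, *Psmb8*, was over 2-fold apart. Under that minimum, *Nlrc5* (mean 1.551 FPKM) was at 0.9584, 1.535 and 0.5069 times its mean in Ctrl 1, 2 and 3. Outside these lists, the interferon-induced guanosine triphosphatases *Igtp* and *Tgtp2* were at 10.3, 16.5 and 4.77 and 6.27, 11.3 and 2.201 FPKM, and the interferon-induced *Isg15* was at 2.58, 9.16 and 3.48 FPKM, with Ctrl 1 the lowest for *Isg15*. *Igtp* and *Isg15* were chosen after their values were seen. The blood cell marker *Ptprc* was at 0 in every library, and the 6 blood cell markers summed to 1.26, 0.439 and 1.07 FPKM in Ctrl 1, 2 and 3, a sum that rests almost wholly on *Itgam* (1.26, 0.439 and 1.02 FPKM).

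Immediate early genes, which respond within minutes to stimuli including tissue handling, had another order. Of the 11 at or above 1 FPKM, 9 were highest in Ctrl 3. *Fos* was at 23.4, 25.3 and 47.5 FPKM and *Egr1* at 9.02, 8.42 and 19.1 FPKM, each over 2-fold apart, while *Jun* (62.95, 58.6 and 71 FPKM) and *Jund* (66.3, 68.1 and 68.4 FPKM) differed less. Of 13 protein genes of the mitochondrial genome, 11 were highest in Ctrl 3, with summed levels of 21470, 17890 and 23890 FPKM. The part of handling in these values was not tested.

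**Figure D4:**
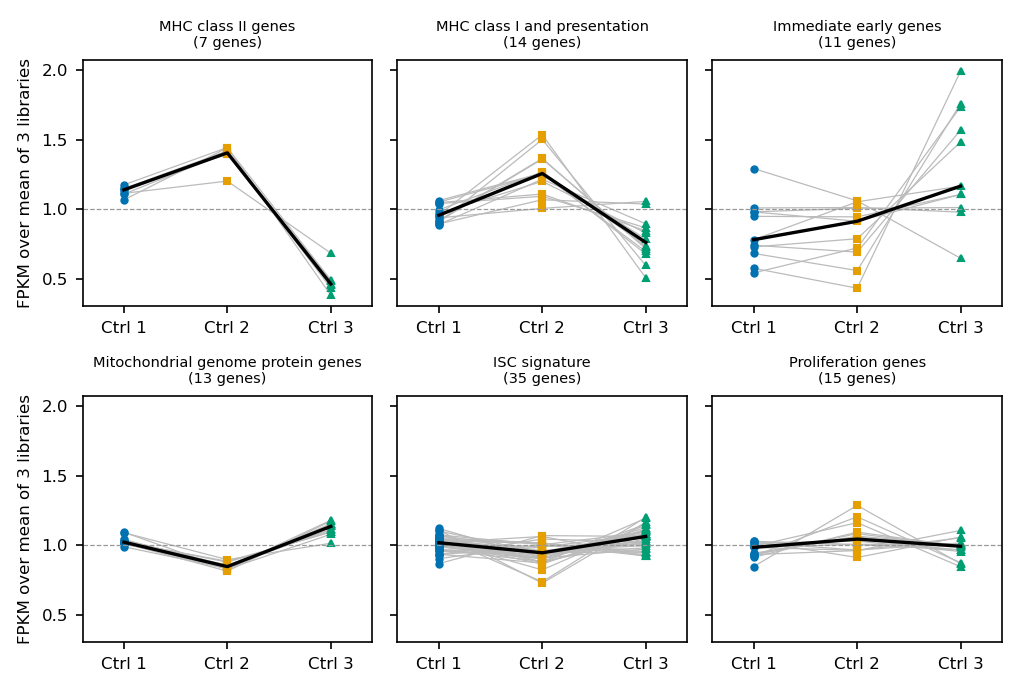
Level of each gene at a mean of 1 FPKM or more in 6 lists, divided by its mean over the 3 Ctrl libraries, with 1 line per gene and the black line at the median of the list. The lines join the same gene and imply no order of the libraries. The MHC class II median is 1.41 in Ctrl 2 and 0.463 in Ctrl 3, whereas the ISC signature and proliferation medians stay between 0.946 and 1.06.

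Markers of secretory cells differed between libraries as well. Of the 5 enteroendocrine markers at or above 1 FPKM, 4 were highest in Ctrl 2, among them *Chgb* (7.15, 14.3 and 8.76 FPKM) and *Tac1* (1.195, 4.09 and 1.57 FPKM), whereas *Cck* was at 1.64, 3.69 and 4.78 FPKM and highest in Ctrl 3. The summed level of the Paneth cell markers was lowest in Ctrl 2, at 239, 182 and 222 FPKM. By contrast, that of the goblet cell markers was highest in Ctrl 2, at 314.6, 392.5 and 305.4 FPKM, with 3 of the 6 markers highest there. *Defa22*, a defensin with near-identical copies, was at 10.4, 3.15 and 15.4 FPKM. Of the 20 genes with the largest ratio between libraries, 12 were protein-coding, 7 small nucleolar RNAs and 1 a long noncoding RNA, and several of the first share exon sequence with a neighbor. *Gm20716* shares 83.1% of its exon sequence with *Adnp* on the same strand, *Gm28048* shares 89.2% with *B3gnt2* and *Pagr1a* 98.7% with *Gm42742*, so that their ratios rest on how reads were assigned. The remaining ones included *H2-Q6* (7.63, 13.2 and 2.46 FPKM), *H2-Q7* (14.1, 19.1 and 4.84 FPKM) and *Ugt1a9* (0.812, 1.71 and 12.8 FPKM), a glucuronosyltransferase that shares its last exons with the other *Ugt1a* genes. The H2-Q genes are close copies of one another. The other protein-coding ones were *Gm21981* (16.8, 1.97 and 11.5 FPKM), *Gm15315* (9.502, 2.32 and 10.8 FPKM) and *Rpl36a-ps1* (11.6, 6.14 and 2.65 FPKM), with *H2-Aa* and *Tgtp2* as given, and the long noncoding RNA was *Gm26880* (8.93, 0.853 and 5.64 FPKM).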

How the data were processed

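RNA of sorted ISCs was sequenced in 12 libraries, of which the 3 Ctrl libraries, grouped by their labels, were used. The libraries were made from total RNA with random hexamer primers. The authors deposited, for every library, FPKM, TPM and mean coverage per gene, and a table of estimated counts per gene for all 12. Per the labels' processing notes, reads were aligned to mm10 with HISAT2 2.2.1 and quantified with StringTie 2.2.1, whereas the paper's methods name other versions and another counter. The deposited FPKM are divided by transcript length and library size. The deposited TPM and estimated counts served for alternatives, and the deposited coverage signal was only checked. Estimated counts were rounded to whole numbers when read, and no count model was fitted. All 12 columns of the count table matched a sample (0 did not), and the 9 tables of other groups were not used.

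FPKM of the 16 genes listed in several rows were summed, and the mean ± SD of the 3 libraries is given with no test, since a single group was described. Genes differ beyond their spread where their 3 values do not overlap, and the pairs of genes set side by side as ratios within a library were chosen after their values were seen. A gene at or above 1 FPKM was counted as expressed. Lists (63, with 978 genes, all matched by symbol) and members were chosen with earlier results of these data known. Names were drawn from the 30 highest genes, the highest and silent members of each list, and the 20 genes at 5 FPKM or more with the largest ratio between libraries, and the ribosomal protein genes, mitochondrial genes and small nucleolar RNAs among them are mostly given as counts. Of the genes, 47224 matched the annotation (GENCODE vM21). Promoters came from RefSeq, and those of Lgr5 and Smoc2 were not analysed here. Paralogs and genes on opposite strands can share reads. Some listed genes are counted but not reported here. The ratio rule was tested on simulated data. Tools were Python 3.11 with pandas and NumPy. Alternatives were TPM, counts per length, other limits, other row handling, rescaling without mitochondrial and ribosomal protein genes, and leaving out each library.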

Additional observations from a re-analysis of the deposited data

How the results depend on the processing

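The number of genes at or above 1 FPKM kept within 1.5 times of 11868 in every alternative, from 11240 (1 FPKM in every library) to 13040 (TPM), and was 11797 to 11909 without 1 library. The share of FPKM in the 100 highest genes was 34.48 to 34.71% without 1 library, 34.97% by counts per length and 22.77% once mitochondrial genome and ribosomal protein genes were left out and the rest rescaled. The median of the ISC markers was 123.3 to 130 FPKM without 1 library, 258.1 as TPM, 117.6 by counts per length and 178.3 without mitochondrial and ribosomal protein genes. TPM and the rescaled FPKM multiply the genes kept in a library by 1 factor, so the order of genes stays. The count of genes over 2-fold apart was the least stable. It was 133, and 41 to 87 without 1 library, as a pair gives a smaller range than 3 libraries (87 without Ctrl 1, 63 without Ctrl 2, 41 without Ctrl 3). It was 334 by TPM, 210 without mitochondrial and ribosomal protein genes, 872 with a minimum of 1 FPKM and 627 with no minimum and a pseudocount of 1. It was 77 for protein-coding genes alone, an alternative chosen after seeing the data. By counts per length it was 174, of which 103 were also among the 133. Of the 978 listed genes, 642 were at or above 1 FPKM and 640 to 668 in the alternatives. By counts per length, 4 of the 642 were under 1, and 9 others reached it. For 48 of the 642, the level by counts per length was over 2 times from FPKM, relative to the median of their ratio (1.17), so orders between close levels and the size of ratios depend on the gene model. No paired analysis was possible because a single group was described, with no second group to pair its libraries with. Depth limits genes near 0, whose limit was 12 counts per library.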

Other observations

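Clock genes were readable in the untreated cells. Of 17 circadian genes 14 were at or above 1 FPKM, with the repressor *Nr1d1* at 24.4, 23.2 and 25.9 FPKM in Ctrl 1, 2 and 3, *Arntl* at 7.43, 8.33 and 7.88 FPKM and *Dbp* at 6.42 ± 1.24 FPKM (SD, n = 3). The values of *Nr1d1* and *Arntl* were close between the libraries. Over the 14 clock genes, the median ratio of the highest to the lowest library was 1.39. It was 1.18 over all genes at the higher minimum of 5 FPKM. Part of *Nr1d1* lies opposite *Thra*, and 18% of the exon sequence of *Dbp* opposite *Sphk2*.

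Tuft and microfold cell genes were near the limit of detection, with 4 of 6 markers of each under 1 FPKM. The tuft cell factor *Pou2f3* was at 1.92, 1.8 and 1.896 FPKM, and the microfold cell marker *Gp2* was at 0.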
